A study of Homo sapiens with 8 samples.

Results

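The miR-99/100 and miR-125 neighbours of let-7 were described across 4 tumor-derived cell lines. The members were 10 mature miRNAs of the 2588 mature names in the deposited table, taken by name as arms of the hairpins that lie beside let-7c, let-7e and let-7a-2. They were hsa-miR-99a-5p, hsa-miR-99b-5p, hsa-miR-99b-3p, hsa-miR-100-5p, hsa-miR-100-3p, hsa-miR-125a-5p, hsa-miR-125a-3p, hsa-miR-125b-5p, hsa-miR-125b-1-3p and hsa-miR-125b-2-3p, and the prefix of the species is left out in what follows. Small RNA was sequenced by the study from ES-2 cells of ovarian cancer, MV-3 cells of melanoma, Huh-7 cells of hepatocellular carcinoma and A-549 cells of lung cancer, with 2 libraries per line and 8 in all. All cells were parental and untreated, were grown in DMEM with fetal bovine serum, and were harvested 48 h after seeding, and 50 ng of total RNA entered each library. Each line is a single established tumor line, so differences between lines cannot be told apart from differences between the individual tumors they came from. The sources do not say that the 2 libraries of a line came from separate cultures, so p-values measure only the spread between these libraries.

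Most animal genomes keep let-7 hairpins next to hairpins of the miR-99/100 and miR-125 families, and one such cluster is usually transcribed as a single long precursor. The family of miR-125 is the vertebrate counterpart of lin-4, which together with let-7 times larval development in worms. The miR-99/100 family is known for targeting the mTOR kinase, and miR-125 for targeting LIN28, the RNA-binding protein that blocks the processing of let-7 precursors. A hairpin yields an arm from its 5′ side (5p) and one from its 3′ side (3p), and the strand kept in Argonaute is usually one of them. The seed, bases 2 to 8 of the mature strand, largely sets which mRNAs are bound.

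The sequences of the 5p members are shown because they decide which members share targets and which can be told apart by reads. Capitals mark the seed in each line, read 5′ to 3′ (RefSeq, GRCh38.p14).
miR-99a-5p: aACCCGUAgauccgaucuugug
miR-100-5p: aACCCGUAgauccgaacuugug
miR-99b-5p: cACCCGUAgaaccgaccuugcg
miR-125b-5p: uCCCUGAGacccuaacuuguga
miR-125a-5p: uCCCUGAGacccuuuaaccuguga
The 3 members of the miR-99/100-5p family carried 1 seed, and the miR-125-5p members carried another. miR-99a-5p differed from miR-100-5p by a single base, A16U, with positions counted from 1 at the 5′ end of the first-named miRNA. miR-99b-5p differed from miR-100-5p by A1C, U11A, A16C and U21C. miR-125a-5p and miR-125b-5p shared their first 13 and last 5 bases, but had 24 and 22 bases. miR-4319 also carried the miR-125-5p seed, and it was at 0 in every library.

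The 3p members are shown since the miR-125b hairpins can be told apart only by their 3p arms (RefSeq, GRCh38.p14, seeds in capitals).
miR-99b-3p: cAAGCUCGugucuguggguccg
miR-100-3p: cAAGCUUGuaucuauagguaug
miR-125a-3p: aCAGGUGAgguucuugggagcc
miR-125b-1-3p: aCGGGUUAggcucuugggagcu
miR-125b-2-3p: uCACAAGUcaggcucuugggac
No seed was shared among these 5 arms. miR-125b-5p is made from a hairpin on chromosome 11 and from another on chromosome 21, whereas miR-125b-1-3p comes only from the former and miR-125b-2-3p only from the latter. All 10 members were matched to a RefSeq mature sequence.

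The hairpins were placed with GENCODE release 44 on GRCh38. On chromosome 21, plus strand, MIR99A (16539089 to 16539169), MIRLET7C (16539828 to 16539911) and MIR125B2 (16590237 to 16590325) lie in the noncoding host gene MIR99AHG. MIR99A is intronic, while MIRLET7C overlaps an exon in 3 of 128 host transcripts that span it and MIR125B2 in 1 of 126. On chromosome 11, minus strand, MIR100 (122152229 to 122152308), MIRLET7A2 (122146522 to 122146593) and MIR125B1 (122099757 to 122099844) lie in introns of the noncoding host gene MIR100HG. On chromosome 19, plus strand, MIR99B (51692612 to 51692681), MIRLET7E (51692786 to 51692864) and MIR125A (51693254 to 51693339) lie in introns of SPACA6, and they overlap the antisense gene SPACA6-AS1. The chromosome 19 cluster spans 728 bases, compared with 51237 bases on chromosome 21 and 52552 on chromosome 11.

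Libraries held 1173902 to 2670030 reads on mature miRNAs. Values are given as normalised CPM, the deposited scale of reads per 1000000 corrected by factors from the trimmed mean of M values (TMM). These factors ranged from 0.593 in A-549 to 1.70 in Huh-7, so modest differences were also read as library CPM, reads per 1000000 without the factor. A count of 3 reads, the detection floor, corresponded to 0.845 to 2.45 normalised CPM, and intervals and floors cover counting error only. Replicates of a line correlated with r between 0.971 and 0.980 over 528 miRNAs on the log2 scale. The hepatocyte marker miR-122-5p was at 81224 and 86217 normalised CPM in Huh-7 and at most 39.2 in the other lines. MV-3 lacked the melanocyte marker miR-211-5p, with 0 reads, and had 4 reads of miR-204-5p. The 5 epithelial markers of the miR-200 family summed to 2273 to 2339 normalised CPM in Huh-7, 1605 to 1726 in A-549, 56.0 to 60.4 in ES-2 and 29.6 to 46.1 in MV-3, and miR-141-3p was at or near 0 in both Huh-7 and A-549. Of 3 blood cell markers, miR-142-3p was at 337 and 376 normalised CPM in ES-2 and at 0 elsewhere, while miR-223-3p and miR-451a were at or near 0 in every line. The part of these differences in the results on the members was not tested. In bulk RNA of a culture, fewer cells that make a miRNA and less of it per cell cannot be told apart.

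How many members differed between lines was determined first. limma with Benjamini-Hochberg adjustment over the 528 miRNAs tested called 9 of 10 members when the 4 lines were compared jointly (adjusted p below 0.01), where 68.2% of all tested miRNAs were called. All 10 members passed the filter on low values, 2 of them, miR-100-3p and miR-125b-1-3p, without a read in Huh-7. In Huh-7 against ES-2, 7 members were called (background 49.2%). Huh-7 had 3 of these higher (background 27.7%) and 4 lower (21.6%). In MV-3 against ES-2, 6 were called (25.8%), 3 higher (11.6%) and 3 lower (14.2%). In A-549 against ES-2, 9 were called (41.3%), 3 higher (23.7%) and 6 lower (17.6%).

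In Huh-7 against MV-3, 8 members were called (47%), 1 higher (26.9%) and 7 lower (20.1%). Between A-549 and MV-3, 9 were called (39.6%), 2 higher in A-549 (24.1%) and 7 lower (15.5%). In A-549 against Huh-7, 7 were called (52.3%), 5 higher (28.6%) and 2 lower (23.7%).

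The split by direction depended on the scaling in every pair except MV-3 against ES-2. With library size only, 2 members were called higher in A-549 than in Huh-7 (21% of all miRNAs) and 5 lower (46.2%), which turns the balance. Against MV-3, A-549 then had 0 members higher (15.5%) and 8 lower (30.1%). Against ES-2, A-549 had 2 higher (21.2%) and 6 lower (26.5%). In Huh-7, 5 members were then called higher (43%) and 4 lower (16.5%) against ES-2, and 2 higher (35.4%) and 5 lower (17.4%) against MV-3. With the TMM factors, the median log2 fold change of the members was -1.80 in A-549 against MV-3 and -1.71 in A-549 against ES-2, beside 0.08 and 0.0031 over all tested miRNAs. It was 0.39 in Huh-7 against ES-2, beside 0.34 over all. The pairs share libraries, so these numbers are not independent of each other. Over the 6 pairs, each of the 5 members of the 5p type was called in each pair, 30 of 30 comparisons, and the 3p members in 16 of 30, compared with 42.5% of all pair comparisons of tested miRNAs.

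**Figure D1:**
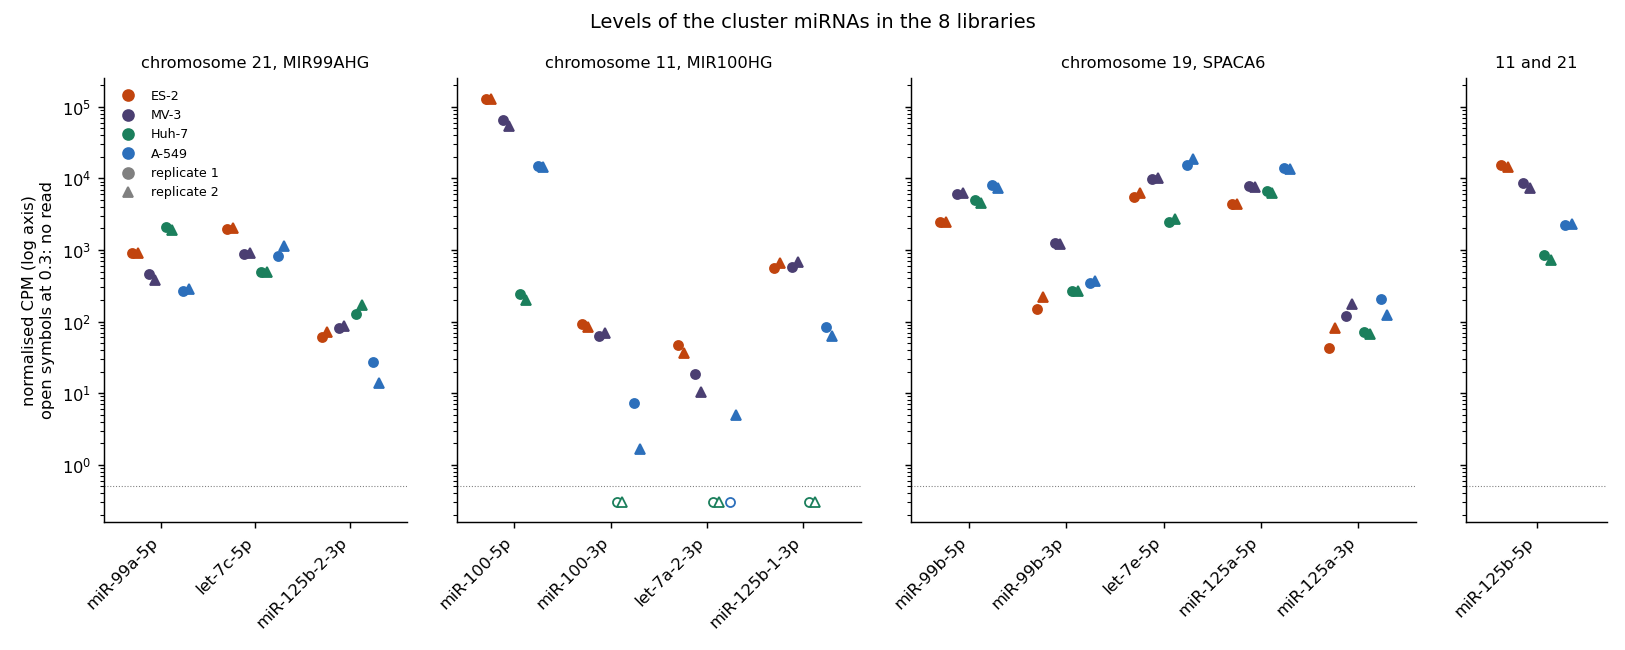
Normalised CPM (log axis) of 9 members and of let-7 neighbours by cluster, with miR-125b-5p, which has hairpins on chromosomes 11 and 21, in the last panel. Colors mark lines, symbols mark replicates, and open symbols below the dotted line mark libraries without a read. Huh-7 is lowest for the chromosome 11 arms and highest for miR-99a-5p and miR-125b-2-3p, and the chromosome 19 5p members stay within a 3.17-fold range.

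The chromosome 11 members were lowest in Huh-7, where miR-100-3p and miR-125b-1-3p had no read. In ES-2, MV-3 and A-549, miR-100-5p was the most abundant member. miR-100-5p was at 128779 and 130531 normalised CPM in ES-2 (replicates 1 and 2), at 65419 and 54893 in MV-3, at 14906 and 14608 in A-549, and at 244 and 203 in Huh-7. The order of lines was ES-2, MV-3, A-549 and Huh-7, no 2 lines overlapped, and library CPM gave the same order. Ordered by library CPM, miR-100-5p had rank 3 among all miRNAs in ES-2 and MV-3, rank 11 in A-549 and rank 112 in Huh-7. The mean of Huh-7 lay 580-fold below that of ES-2, a log2 fold change of -9.18 (SE 0.11, limma's adjusted p = 1.52e-08). By library CPM this fold was 299. The mean of A-549 was 66.0-fold above Huh-7 by normalised CPM and 23.8-fold by library CPM. The mean of MV-3 was 2.16-fold below that of ES-2, where the call was lost when only these 2 lines were fitted.

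The passenger arm of the same hairpin, miR-100-3p, was far rarer. It was at 91.6 and 85.3 normalised CPM in ES-2, at 62.2 and 69.7 in MV-3, at 7.39 and 1.64 in A-549, from 12 and 2 reads, and without a read in Huh-7. The ES-2 libraries lay above those of MV-3 on this scale and overlapped them by library CPM. limma, with a spread shared by all lines, did not call MV-3 against ES-2 (adjusted p = 0.641). A-549 was 19.6-fold lower than ES-2 (log2 fold change -4.25, SE 0.57, limma's adjusted p = 0.000951). This call was lost without ES-2 replicate 1, that of A-549 against MV-3 without either MV-3 library, and both when only the 2 lines were fitted. Huh-7 lay at least 86.3-fold below ES-2 and at least 64.4-fold below MV-3, taking 3 reads in the library with the larger floor as the level of Huh-7. By library CPM these bounds were 43.4-fold and 43.97-fold. At the 5p to 3p ratio of ES-2, the 1461 miR-100-5p reads of Huh-7 would correspond to 0.990 miR-100-3p reads and to 1.64 at that of MV-3, so a count of 0 says little about the ratio of the arms there.

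miR-125b-1-3p, which marks the MIR125B1 hairpin at the other end of the cluster, followed the same lines. It was at 557 and 651 normalised CPM in ES-2, at 583 and 680 in MV-3, at 83.1 and 63.0 in A-549, and had 0 reads in both Huh-7 libraries. The ES-2 and MV-3 ranges overlapped (log2 fold change 0.06, SE 0.20, limma's adjusted p = 0.885). The level in A-549 was 8.27-fold below ES-2 and 8.64-fold below MV-3, the latter 16.7-fold by library CPM. Huh-7 was at least 590-fold below ES-2, at least 616-fold below MV-3 and at least 71.3-fold below A-549. On the scale of library CPM the bounds were 296-fold, 421-fold and 25.2-fold.

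Profiles were compared by the root mean square difference on the log2 scale, after centring each miRNA. Over the 6 libraries of ES-2, MV-3 and A-549, the difference to miR-100-5p was 0.18 for miR-125b-5p, 0.56 for miR-125b-1-3p and 0.73 for miR-125b-2-3p. With Huh-7 included, it rose to 4.11 for miR-125b-2-3p, the arm of the other miR-125b hairpin. For miR-125b-1-3p, which had no read in Huh-7, the value over 8 libraries was set by the pseudocount, at 1.71, 0.54 and 0.91 with 0.1, 1 and 5 added. The libraries of a line share cells and scaling, so these are descriptions. The third hairpin of the cluster, let-7a-2, is marked by let-7a-2-3p, because let-7a-5p also comes from chromosomes 9 and 22. let-7a-2-3p was at 47.2 and 36.5 normalised CPM in ES-2, at 18.5 and 10.4 in MV-3, at 0 and 4.91 in A-549, and at 0 in both Huh-7 libraries. limma called Huh-7 below both ES-2 and MV-3, but did not call A-549 against Huh-7 (adjusted p = 0.218). The 3p arms of the chromosome 11 hairpins, miR-100-3p, let-7a-2-3p and miR-125b-1-3p, thus had 0 reads in Huh-7 in each of 2 libraries. miR-100-5p, which also comes only from this cluster, had 868 and 593.

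The chromosome 21 members had a different order of lines, with Huh-7 at the top. miR-99a-5p was at 2114 and 1923 normalised CPM in Huh-7, at 923 and 898 in ES-2, at 462 and 384 in MV-3, and at 267 and 287 in A-549. No 2 lines overlapped, and library CPM gave the same order. The mean in Huh-7 was 2.22-fold above ES-2 (log2 fold change 1.15, SE 0.11, limma's adjusted p = 0.000140), 4.78-fold above MV-3 and 7.29-fold above A-549. By library CPM Huh-7 was 4.31-fold above ES-2 and 20.2-fold above A-549, and MV-3 2.95-fold above A-549. The smallest step, from MV-3 to A-549 (1.53-fold), lost its call under 10 of 20 alternative settings, namely without any library except MV-3 replicate 2, with RLE size factors, with no filter, and with only the 2 lines fitted. Among ES-2, MV-3 and A-549 the order of miR-99a-5p was also that of miR-100-5p, from which it differs by a single base. The limit this sets is given below.

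miR-125b-2-3p, the arm of the MIR125B2 hairpin that lies 50325 bases beyond MIRLET7C, was also highest in Huh-7. It was at 129 and 168 normalised CPM in Huh-7, at 81.4 and 86.7 in MV-3, at 60.4 and 72.4 in ES-2, and at 27.1 and 13.9 in A-549. The Huh-7 libraries lay above all others and the A-549 libraries below all others. The mean was 7.23-fold lower in A-549 than in Huh-7 (log2 fold change -2.85, SE 0.33, limma's adjusted p = 0.000353), and 20.1-fold by library CPM. The 2.23-fold difference of Huh-7 to ES-2 (SE 0.33 on the log2 scale) was not called by limma (adjusted p = 0.0233) but was called by edgeR's quasi-likelihood test (adjusted p = 0.00956), and it was 4.36-fold by library CPM. The 1.76-fold difference of Huh-7 to MV-3 was not called by limma (adjusted p = 0.0799) or by edgeR (adjusted p = 0.0446). It was 2.53-fold by library CPM. A-549 had 44 and 17 reads, and its call against ES-2 was lost under 9 of 20 alternative settings, namely without any library except A-549 replicate 1, with no filter, and with only the 2 lines fitted. The call of A-549 against Huh-7 was also lost with only the 2 lines fitted. That of A-549 against MV-3 was lost in this setting and without either MV-3 library.

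The let-7 neighbour of these hairpins did not share their order. let-7c-5p was at 1937 and 2048 normalised CPM in ES-2, at 876 and 903 in MV-3, at 821 and 1137 in A-549, and at 498 and 489 in Huh-7, the lowest line on this scale. By library CPM A-549 was the lowest. For let-7c-3p, ES-2 had 17 and 10 reads, MV-3 had 13 and 19, A-549 had 2 and 1, and both Huh-7 libraries had 0. miR-99a-3p, the other arm of the miR-99a hairpin, had 11 reads over all 8 libraries and was not tested.

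Ratios of reads within a library do not depend on the scaling between libraries. The ratio of miR-99a-5p to let-7c-5p was 4.09 ± 0.222 in Huh-7 (SD, n = 2), 0.476 ± 0.0725 in MV-3, 0.457 ± 0.0268 in ES-2 and 0.289 ± 0.0517 in A-549. Only in Huh-7 did miR-99a-5p exceed its neighbour. An exact permutation test of the F ratio over all partitions of the 8 libraries into 4 pairs gave p = 0.0286 (two-sided, adjusted p = 0.0343 over 12 ratios), where the smallest possible p was 0.00952.

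One limit bears on both miRNAs of this ratio, and on the levels and order of lines of miR-99a-5p given above. The reads of miR-99a-5p were 0.702 ± 0.0203 per 100 reads of miR-100-5p in ES-2 and 0.702 ± 0.00515 per 100 in MV-3, although miR-100-5p itself differed 2.16-fold between these lines. The number was 1.88 ± 0.122 in A-549 and 907 ± 59.9 in Huh-7. Since the sequences differ only by A16U, whether part of the miR-99a-5p counts in ES-2 and MV-3 came from miR-100-5p reads was not tested. Likewise, let-7c-5p differs from let-7a-5p only by A19G, and per 100 let-7a-5p reads ES-2 had 1.38 ± 0.0312 of it, MV-3 0.982 ± 0.0226, A-549 1.21 ± 0.138 and Huh-7 15.7 ± 1.44. In Huh-7, miR-99a-5p had 7508 and 5632 reads against 868 and 593 of miR-100-5p, and let-7c-5p had 1768 and 1432 reads against 10607 and 9783 of let-7a-5p.

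The miR-125b hairpins were compared by their 3p arms, since the 5p arm is the same molecule from both. The ratio of miR-125b-1-3p to miR-125b-2-3p reached 9.11 ± 0.173 in ES-2 (SD, n = 2), against 7.50 ± 0.486 in MV-3 and 3.80 ± 1.03 in A-549. In Huh-7 it was 0, with 0 and 0 reads of miR-125b-1-3p against 457 and 491 of miR-125b-2-3p. The exact permutation test gave p = 0.00952, the smallest value the 8 libraries allow (adjusted p = 0.0229). Thus the chromosome 11 arm exceeded the chromosome 21 arm in 6 of 6 libraries of ES-2, MV-3 and A-549, and the order was opposite in 2 of 2 Huh-7 libraries.

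**Figure D2:**
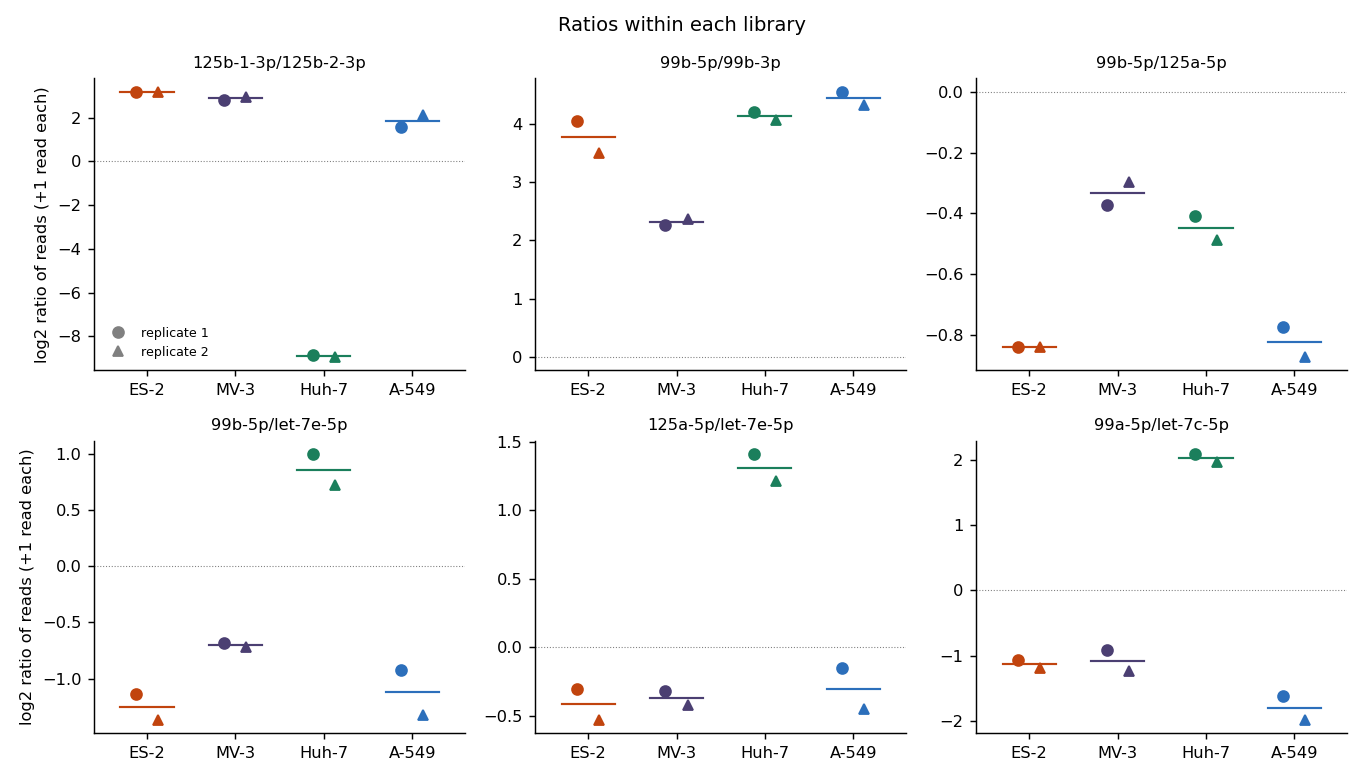
Ratios of reads of 2 miRNAs within each library, as log2 of reads plus 1 read on each side, by line. Points are libraries and lines are means of 2, and the dotted line marks equal reads. Huh-7 stands apart in the ratios of miR-125b-1-3p to miR-125b-2-3p and of each neighbour to its let-7, and MV-3 in the ratio of the miR-99b arms.

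miR-125b-5p, the abundant arm of both hairpins, followed the chromosome 11 arms in order but with a smaller range. It was at 15286 and 14644 normalised CPM in ES-2, at 8749.5 and 7403 in MV-3, at 2224 and 2331 in A-549, and at 849 and 717 in Huh-7. No 2 lines overlapped. The mean in Huh-7 was 19.1-fold below ES-2, 10.3-fold below MV-3 and 2.91-fold below A-549 (log2 fold change of A-549 over Huh-7 1.54, SE 0.11, limma's adjusted p = 3.75e-05). By library CPM Huh-7 lay 9.84-fold below ES-2. The last step depended on the scaling, as the log2 fold change was 0.07 by library size only and was not called. The call of MV-3 against ES-2 was lost without either ES-2 library and when only these lines were fitted (log2 fold change -0.89, SE 0.11, with all 8).

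The table lists miR-125b-5p under an entry for each hairpin. The chromosome 11 entry held between 49.3% and 51.9% of its reads in the 8 libraries, and the exact 95% binomial interval held 50% in 7 of them. In Huh-7 the chromosome 11 entry had 1545 and 1035 reads, while its 3p arm had 0. The entries therefore did not separate the loci, and they were summed. At the ratio of miR-125b-5p to miR-125b-1-3p of ES-2, the 5114 miR-125b-5p reads of Huh-7 would go with 209 reads of miR-125b-1-3p, and with 409 at that of MV-3 or 168 at that of A-549. Since miR-125b-5p comes from both hairpins, these numbers assume that Huh-7 has the mix of hairpins of the other line. The ratio of the 3p arms differed between the lines, so they are not expected counts for Huh-7.

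The chromosome 19 members were present in all lines, and the 5p members differed between lines by about as much as the scaling factors. miR-99b-5p was at 2460 and 2458 normalised CPM in ES-2, at 4966 and 4504 in Huh-7, at 6033 and 6163 in MV-3, and at 8153 and 7447 in A-549. miR-125a-5p was at 4399 and 4401 in ES-2, at 6598 and 6321 in Huh-7, at 7803 and 7575 in MV-3, and at 13931 and 13624 in A-549. Both miRNAs had the same order of lines, and no 2 lines overlapped in either.

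ES-2 was the lowest line for both miRNAs on both scales. The mean of miR-99b-5p was 3.17-fold higher in A-549 than in ES-2 (log2 fold change 1.66, SE 0.07, limma's adjusted p = 5.40e-06), and that of miR-125a-5p 3.13-fold (1.65, SE 0.05, adjusted p = 1.83e-06). The order of the other 3 lines turned with the scaling, from A-549, MV-3 and Huh-7 by normalised CPM to Huh-7, MV-3 and A-549 by library CPM. Between A-549 and Huh-7, the log2 fold change was 0.72 for miR-99b-5p and 1.09 for miR-125a-5p by TMM, and -0.75 and -0.38 by library size only. Dropping the TMM factors shifted the median of all miRNAs by -1.33 in this pair, by 0.87 in Huh-7 against ES-2 and by -0.88 in A-549 against MV-3. In A-549 against Huh-7 both miRNAs thus lay above the median miRNA on either scale. The calls of miR-99b-5p in Huh-7 against MV-3 (-0.37, SE 0.07) and in A-549 against MV-3 (0.35, SE 0.07) were lost without any library of ES-2 or MV-3, and so was that of miR-125a-5p in Huh-7 against MV-3 (-0.25, SE 0.05), which edgeR did not call either (adjusted p = 0.012). All 3 were also lost when only the 2 lines were fitted, and without Huh-7 replicate 2 or, for A-549 against MV-3, without either A-549 library and with no filter.

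**Figure D3:**
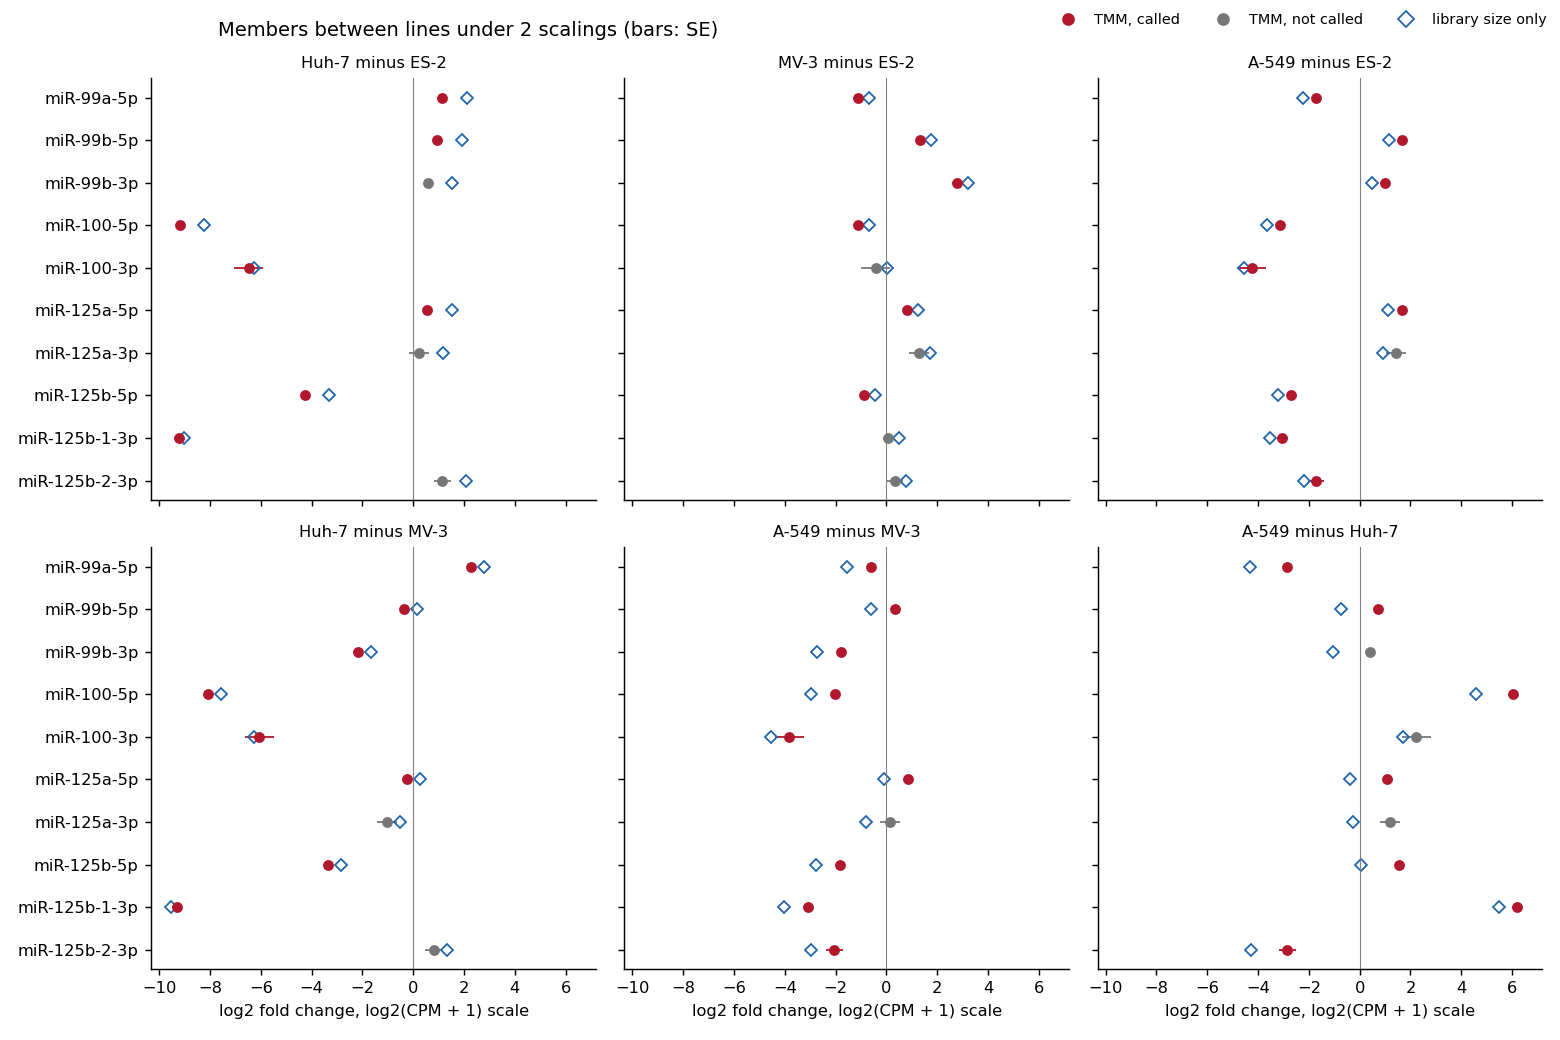
Log2 fold changes of the 10 members for the 6 pairs of lines, on the log2(CPM + 1) scale. Filled points with SE bars use TMM-normalised values, red where limma's adjusted p was below 0.01, and open diamonds use library size only. In 10 of 60 comparisons the sign differed between the scalings, 6 of them called with TMM, and all 6 were miR-99b-5p or miR-125a-5p. The points of miR-100-3p and miR-125b-1-3p against Huh-7, which had 0 reads, depend on the added 1.

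Within a library the ratio of miR-99b-5p to miR-125a-5p varied little. It was 0.559 ± 0.000480 in ES-2 (SD, n = 2), 0.566 ± 0.0273 in A-549, 0.733 ± 0.0283 in Huh-7 and 0.793 ± 0.0286 in MV-3. Both libraries of MV-3 and of Huh-7 lay above all libraries of ES-2 and A-549 (exact permutation p = 0.0286, adjusted p = 0.0343). The range of the line means was 0.50 on the log2 scale.

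let-7e-5p lies between these hairpins. Its line means spanned 6.53-fold by normalised CPM, more than those of its neighbours. By library CPM they spanned 2.65-fold, less than those of miR-99b-5p (3.74-fold) and miR-125a-5p (2.86-fold). It was at 5431 and 6339 normalised CPM in ES-2, at 9716 and 10153 in MV-3, at 15489.9 and 18603 in A-549, and at 2487 and 2730 in Huh-7. The ratio of miR-99b-5p to let-7e-5p was 1.82 ± 0.245 in Huh-7, against 0.614 ± 0.00985 in MV-3, 0.420 ± 0.0461 in ES-2 and 0.463 ± 0.0891 in A-549 (exact permutation p = 0.0190, adjusted p = 0.0327). For miR-125a-5p to let-7e-5p it was 2.48 ± 0.239 in Huh-7 and 0.816 ± 0.118 in A-549, 0.775 ± 0.0404 in MV-3 and 0.752 ± 0.0818 in ES-2. Each neighbour exceeded let-7e-5p in both Huh-7 libraries and in no library of another line. The permutation test of the second ratio over the 4 lines gave p = 0.124, and the ranges of the other 3 lines overlapped. let-7e-5p differs from the more abundant let-7a-5p only by U9G. Whether part of the let-7e-5p counts came from let-7a-5p reads was not tested, and this limit bears on both ratios.

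The rarer arms of the chromosome 19 hairpins behaved differently from each other. miR-99b-3p was at 1265 and 1201 normalised CPM in MV-3, at 348 and 370.5 in A-549, at 270.3 and 270.5 in Huh-7, and at 149 and 218 in ES-2. MV-3 lay far above the other lines and was highest by library CPM too. Its mean was 6.72-fold above ES-2 (log2 fold change 2.77, SE 0.18, limma's adjusted p = 6.09e-05), 4.56-fold above Huh-7 and 3.43-fold above A-549, the last 6.64-fold by library CPM. The difference of A-549 to ES-2 (0.99, SE 0.18, adjusted p = 0.00336) lost its call under 8 of 20 alternative settings, namely by library size only (0.48), with only the 2 lines fitted, and without any library of MV-3, Huh-7 or A-549.

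The ratio of the miR-99b arms, 5p to 3p, was 4.95 ± 0.257 in MV-3 (SD, n = 2), against 13.9 ± 3.75 in ES-2, 17.5 ± 1.22 in Huh-7 and 21.8 ± 2.33 in A-549. Both MV-3 libraries were below all 6 others (exact permutation p = 0.00952, adjusted p = 0.0229). For the miR-125a hairpin in the same cluster, the ratio of arms was 54.4 ± 16.8 in MV-3, 78.9 ± 35.3 in ES-2, 88.5 ± 29.9 in A-549 and 92.9 ± 1.45 in Huh-7, with overlapping ranges (exact permutation p = 0.438). miR-125a-3p was at 42.3 and 81.7 normalised CPM in ES-2, at 71.8 and 67.3 in Huh-7, at 118 and 178 in MV-3, and at 207 and 124 in A-549. It was called in 0 of 6 pairs by limma. edgeR also called it in 0, where it called 49.2%, 26.1%, 38.6%, 45.6%, 40.3% and 53.4% of all tested miRNAs in either direction in the 6 pairs, in the order given for limma. For 4 pairs the unadjusted limma p was below 0.05, and DESeq2 called A-549 over ES-2 and over Huh-7.

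The lines differed in which member held most reads of each seed family. As a share of all miRNA reads, the miR-99/100-5p seed took 11.4% ± 0.0617 of ES-2 (SD, n = 2), 7.75% ± 0.742 of MV-3, 1.37% ± 0.0661 of A-549 and 1.16% ± 0.0473 of Huh-7. Of these reads, miR-100-5p made up only 3.20% ± 0.200 in Huh-7, but 64.6% ± 1.05 in A-549, 90.2% ± 1.15 in MV-3 and 97.5% ± 0.0374 in ES-2. In Huh-7, miR-99b-5p held 67.9% ± 0.0953 and miR-99a-5p 28.9% ± 0.104. In the other lines miR-99a-5p held at most 1.28% in a library.

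The ratio of miR-100-5p to miR-99b-5p, which does not depend on the scaling, fell from 52.7 ± 0.531 in ES-2 to 9.88 ± 1.37 in MV-3, to 1.89 ± 0.0942 in A-549 and to 0.0471 ± 0.00301 in Huh-7. No 2 lines overlapped (exact permutation p = 0.00952, adjusted p = 0.0229). The range from ES-2 to Huh-7 was 10.13 on the log2 scale. The ratio of miR-99a-5p to miR-99b-5p was 0.426 ± 0.000938 in Huh-7, 0.370 ± 0.00696 in ES-2, 0.0694 ± 0.0101 in MV-3 and 0.0357 ± 0.00409 in A-549, again without overlap (exact permutation p = 0.00952). Whether part of the miR-99a-5p counts in ES-2 and MV-3 came from miR-100-5p reads was not tested, which bears on this ratio too.

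The line means of the miR-125-5p seed lay closer together. Its reads were 1.83% ± 0.101 of all miRNA reads in MV-3, 1.66% ± 0.0630 in ES-2, 1.21% ± 0.0123 in Huh-7 and 0.965% ± 0.0256 in A-549. miR-125a-5p made up 89.2% ± 0.853 of them in Huh-7, 85.8% ± 0.596 in A-549, 48.9% ± 2.43 in MV-3 and 22.7% ± 0.539 in ES-2. The ratio of miR-125a-5p to miR-125b-5p was 8.29 ± 0.734 in Huh-7, 6.05 ± 0.296 in A-549, 0.957 ± 0.0929 in MV-3 and 0.294 ± 0.00903 in ES-2 (exact permutation p = 0.00952, adjusted p = 0.0229). In Huh-7 the chromosome 19 member was thus the larger part of both seed families, while in ES-2 the larger part came from miR-100-5p and miR-125b-5p.

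**Figure D4:**
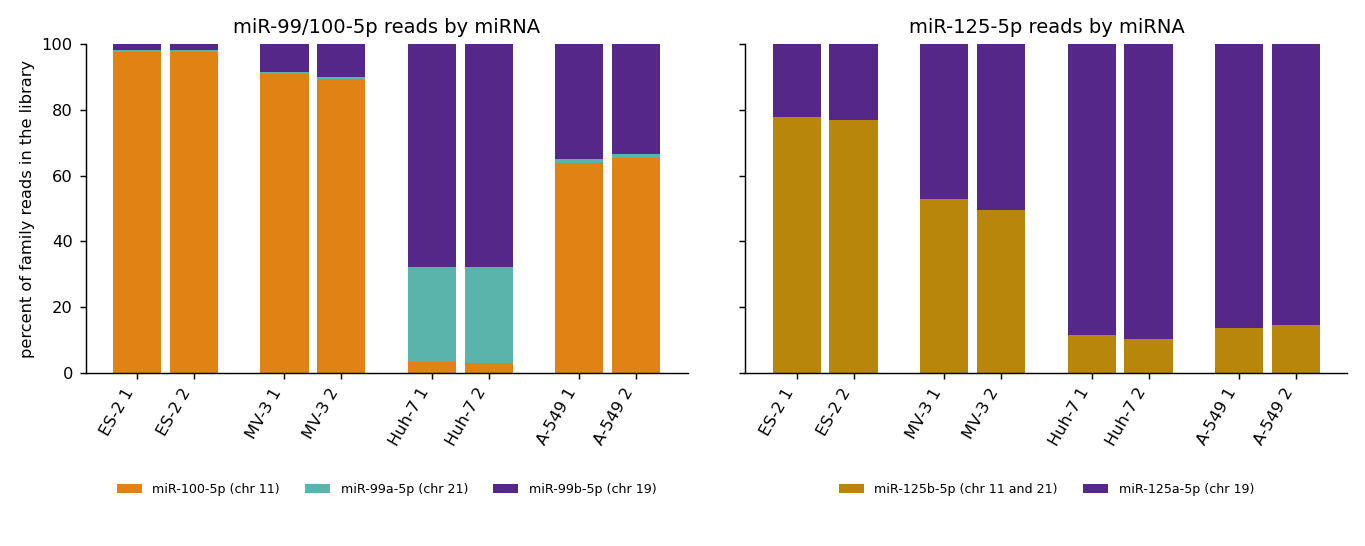
Share of reads, in percent of the family's reads in each library, of the members of the miR-99/100-5p seed (left) and the miR-125-5p seed (right), stacked from 0. Colors mark the chromosome of the hairpin. miR-100-5p makes up 97.5% of the left family in ES-2 and 3.20% in Huh-7, and miR-125a-5p makes up 89.2% of the right family in Huh-7 and 22.7% in ES-2.

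The let-7 neighbours were described as a list of 7 arms (let-7a-5p, let-7a-2-3p, let-7c-5p, let-7c-3p, let-7e-5p, let-7e-3p and miR-99a-3p), of which 6 passed the filter. In Huh-7, 6 of 6 were called lower than in ES-2 and 6 of 6 lower than in MV-3 by limma. Of all tested miRNAs, 21.6% and 20.1% were called lower in these pairs. let-7c-3p and let-7a-2-3p had 0 reads in Huh-7 and passed the filter through other lines, so they could not come out higher there. With library size only, 4 and 5 of 6 were called lower, against 16.5% and 17.4% of all tested miRNAs. let-7a-5p, the most abundant of them, was at 137879 and 150472 normalised CPM in ES-2, at 87714 and 93415 in MV-3, at 73866.5 and 87030.3 in A-549, and at 2987 and 3341 in Huh-7. let-7e-3p, the rarer arm of the let-7e hairpin on chromosome 19, was at 18.7 and 24.7 in ES-2, at 25.9 and 32.4 in MV-3, at 55.4 and 32.7 in A-549, and at 4.51 and 3.42 in Huh-7. In Huh-7 against ES-2, the arms of one cluster therefore differed in direction, with miR-99a-5p called higher and let-7c-5p called lower on chromosome 21, and miR-99b-5p and miR-125a-5p called higher and let-7e-5p called lower on chromosome 19. With library size only, let-7e-5p was not called there (log2 fold change -0.21 in place of -1.17, limma's adjusted p = 0.143). let-7c-5p and let-7e-5p each differ from let-7a-5p by 1 base, and the part of let-7a-5p reads in their counts was not tested. On chromosome 11, miR-100-5p, miR-100-3p, miR-125b-1-3p and let-7a-2-3p were all called lower.

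Among 235 other miRNAs with at least 100 normalised CPM in any line, the profiles nearest to each 5p member were found by the root mean square difference over the 8 libraries, on the log2 scale after centring. No test was made of these profiles. For miR-99a-5p they were miR-615-3p (0.25, r = 0.974), miR-186-5p (0.27) and miR-548k (0.36). For miR-99b-5p, miR-22-3p was at 0.26 (r = 0.951), close to the value of its cluster member miR-125a-5p (0.23, r = 0.932), and miR-22-3p was also nearest to miR-125a-5p (0.29). The nearest to miR-100-5p were let-7d-5p (0.82, r = 0.975) and let-7d-3p (0.85). For miR-125b-5p they were miR-222-3p (0.38, r = 0.981), miR-221-5p (0.41) and miR-29a-3p (0.42).

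The miR-10 miRNAs are sequence relatives of miR-99/100 encoded in the HOX gene clusters. miR-10a-5p was at 11859 and 12253.5 normalised CPM in ES-2, at 2126 and 2020 in MV-3, at 5508 and 6040 in A-549, and at 5.63 and 7.51 in Huh-7, and was lowest in Huh-7 as miR-100-5p was. miR-10b-5p was at 2447 to 3057 normalised CPM in ES-2 and Huh-7 and was not called between them by limma (log2 fold change -0.22, SE 0.09, adjusted p = 0.0636). With library size only, it was called higher in Huh-7 (log2 fold change 0.74, limma's adjusted p = 0.000128).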

How the data were processed

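Small RNA was sequenced in 8 libraries, 2 for each of 4 cell lines, and libraries were assigned to lines by their titles. Per the submitters' processing notes and the study's methods, the authors removed adapters with cutadapt 1.14, aligned reads to GRCh38 with Bowtie2 2.3.2, counted them on miRBase mature miRNAs with featureCounts 1.5.3, and scaled them by TMM in edgeR 3.18.1. How reads that align to several places were assigned, and whether strand was used, is not given in the sources used here. This bears on miRNAs that differ by 1 base or have several hairpins.

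The deposited signal values were whole reads times 1 constant per library, as 100% of the values came out whole at a tolerance of 0.001. From these constants the reads and the TMM factors were recovered, and the 2813 entries were summed to 2588 names. The members and lists were chosen with earlier results of these data known. Every member is named in every comparison, and the other miRNAs named are let-7 neighbours, miR-10 relatives, markers, and the 3 nearest profiles per 5p member.

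The main test was limma 3.58.1 (R 4.3.3) on log2(normalised CPM + 1), with 1 term per line, 4 residual degrees of freedom and a mean-dependent prior variance. edgeR's filterByExpr kept 528 miRNAs. P-values were adjusted by Benjamini-Hochberg over all of them, and a call needed an adjusted p below 0.01. Fold changes on this scale understate changes of miRNAs with few reads. Folds in the text are ratios of mean normalised CPM unless a log2 fold change is named. Ratios within a library used reads plus 1 on the log2 scale for the test, and plain reads for the values printed. An exact permutation test of 2 libraries against 2 cannot give a p below 0.333, so ratios were tested over the 4 lines together. The fits were tested on simulated data. Alternatives were edgeR's quasi-likelihood test (4.0.16) and DESeq2 (1.42.0) on recovered reads, RLE factors or library size only in place of TMM, pseudocounts of 0.1 and 5, testing every miRNA or those with 10 normalised CPM in 2 libraries, the highest entry of a name only, a threshold of 0.05, a replicate block, only the 2 lines compared, and leaving out each library. Python 3.11.15 with scipy 1.17.1 was used for ratios.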

Additional observations from a re-analysis of the deposited data

How the results depend on the processing

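Of 60 comparisons of a member between 2 lines, 46 were called, and 29 of these kept their call and direction under each of 20 alternatives. Library size only turned 10 directions, of which 6 had been called. It gave log2 fold changes of 0.15, -0.60 and -0.75 for miR-99b-5p and 0.27, -0.11 and -0.38 for miR-125a-5p in Huh-7 against MV-3, A-549 against MV-3 and A-549 against Huh-7. Among uncalled differences it gave -1.06 for miR-99b-3p in A-549 against Huh-7, 0.015 for miR-100-3p in MV-3 against ES-2, and -0.80 and -0.26 for miR-125a-3p in A-549 against MV-3 and against Huh-7. This follows from the removed factors. Leaving out a library also turned uncalled differences. For miR-125a-3p the range was -0.23 to 0.70 in Huh-7 against ES-2, below 0 without ES-2 replicate 1, and -0.22 to 0.51 in A-549 against MV-3, below 0 without MV-3 or A-549 replicate 1. For miR-125b-1-3p in MV-3 against ES-2 it was -0.048 to 0.17, below 0 without ES-2 replicate 1 or MV-3 replicate 2.

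With only the 2 lines compared, which leaves fewer libraries for the spread, 3 members were called in MV-3 against ES-2 and 5 in A-549 against MV-3. Without single libraries the latter number ran from 5, without MV-3 replicate 1, to 8. The ratio of the miR-100 arms among lines rested on a count of 0 in Huh-7. With a pseudocount of 0.1 its highest minus lowest line turned from 2.21 to -0.80 on the log2 scale, and leaving out single libraries gave 1.37 to 3.05, with exact permutation p up to 0.171. That range was 0.468 to 0.542 for miR-99b-5p to miR-125a-5p and 1.98 to 2.25 for miR-99b-5p to let-7e-5p. The p rose to 0.0571 for the former without MV-3 or Huh-7 replicate 2 and for the latter without MV-3 replicate 1.

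Whether replicate numbers pair libraries of different lines is not stated in the sources. The correlation of the difference of replicates between lines ran from -0.05 to 0.232 over 6 pairs of lines, which cannot decide it. With a replicate block, the members called stayed at 7, 6, 9, 8, 9 and 7 for the 6 pairs and at 9 for the 4 lines. Depth limits the rare arms, such as miR-100-3p in A-549 with 12 and 2 reads. The likeness of profiles to miR-100-5p was recomputed with pseudocounts of 0.1 and 5 and without Huh-7, a choice made after seeing the data.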

Other observations

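Together, the 10 members held 13.1% ± 0.113 of the miRNA reads of ES-2 (SD, n = 2), 9.84% ± 0.831 of those of MV-3, 2.45% ± 0.0531 of those of Huh-7 and 2.37% ± 0.0967 of those of A-549. By normalised CPM, ES-2 had a sum of 153394, MV-3 of 84604, A-549 of 39512 and Huh-7 of 14708, so A-549 and Huh-7 came close as shares of reads and not on this scale. No test was made of these sums, since the members were chosen with results known.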
